A study of Homo sapiens with 2 samples.

Results

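The genes described here are 8 markers of the adrenal gland, measured among 60664 genes in RNA-seq of HEK293T cells. They were chosen by name. TH, DBH, PNMT, CHGA, CHGB and PHOX2A mark the chromaffin cells of the adrenal medulla, and STAR and CYP11A1 mark the steroid-producing adrenal cortex. All 8 were found in the files by their Ensembl identifiers. HEK293T is an established human line derived from embryonic kidney cells that carry adenovirus DNA, to which the SV40 large T antigen was later added. An adrenal origin has been proposed for the line, on the ground of its neuronal-type gene expression. The series holds 2 libraries of 1 group, wild type and untreated, with no other group to set against it. For replicate 2 the title says HEK293T while the cell line field says HEK294T, and the title was followed. Nothing in the labels ties the libraries to different cultures, and their spread may be only technical. Values after ± are the SD over both libraries (n = 2).

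Chromaffin cells make adrenaline from tyrosine in a fixed order of steps. TH makes DOPA, DDC turns DOPA into dopamine, DBH turns dopamine into noradrenaline, and PNMT methylates noradrenaline to adrenaline. The products are stored in dense granules with the granins CHGA and CHGB, and the homeodomain factor PHOX2A takes part in setting the noradrenergic program. In the cortex, STAR moves cholesterol into mitochondria, where CYP11A1 cuts its side chain to give pregnenolone, the first step of steroid synthesis.

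Promoter windows are shown for the 4 members that had one in the set of windows used here. Of these, CHGA and PHOX2A were detected, and DBH and CYP11A1 were at or near 0 counts. The windows come from RefSeq on GRCh38.p14 and run from 250 bases before to 50 bases after the annotated start. They are written 5′ to 3′ on the strand of the gene. The set held no window for PNMT, TH, CHGB and STAR, so the 4 shown were not chosen by level. The windows of CHGA, DBH and CYP11A1 hold the start of the gene as counted. PHOX2A as counted begins at 72245664 on the minus strand, outside its window, so its letters are not those at that start. Capitals mark exact matches on either strand to the cAMP response element TGACGTCA, its first letters TGACG, the GC box GGGCGG bound by SP1, the EGR1 motif GCGNGGGCG and the TATA box TATAAA, and matches may overlap each other. CHGA lies at chr14:92922900-92923199 on the plus strand, PHOX2A at chr11:72244127-72244426 on the minus strand, DBH at chr9:133636113-133636412 on the plus strand and CYP11A1 at chr15:74367597-74367896 on the minus strand.
CHGA: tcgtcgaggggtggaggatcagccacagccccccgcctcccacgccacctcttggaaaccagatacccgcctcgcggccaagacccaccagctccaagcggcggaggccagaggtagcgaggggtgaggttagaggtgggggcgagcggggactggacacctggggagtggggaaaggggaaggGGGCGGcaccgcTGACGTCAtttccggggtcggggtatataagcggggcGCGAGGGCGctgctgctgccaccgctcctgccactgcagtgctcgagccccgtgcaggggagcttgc
PHOX2A: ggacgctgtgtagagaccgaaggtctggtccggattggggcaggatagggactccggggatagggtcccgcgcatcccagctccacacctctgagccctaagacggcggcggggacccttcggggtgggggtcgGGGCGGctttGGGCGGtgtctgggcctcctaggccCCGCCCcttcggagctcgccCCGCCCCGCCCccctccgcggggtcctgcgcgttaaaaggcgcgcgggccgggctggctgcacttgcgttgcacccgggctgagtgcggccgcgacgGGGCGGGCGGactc
DBH: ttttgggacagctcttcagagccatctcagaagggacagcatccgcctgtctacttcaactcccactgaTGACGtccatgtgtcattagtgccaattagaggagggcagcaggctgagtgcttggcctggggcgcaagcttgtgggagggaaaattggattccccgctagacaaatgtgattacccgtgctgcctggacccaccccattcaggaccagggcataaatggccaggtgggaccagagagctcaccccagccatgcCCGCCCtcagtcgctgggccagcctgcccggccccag
CYP11A1: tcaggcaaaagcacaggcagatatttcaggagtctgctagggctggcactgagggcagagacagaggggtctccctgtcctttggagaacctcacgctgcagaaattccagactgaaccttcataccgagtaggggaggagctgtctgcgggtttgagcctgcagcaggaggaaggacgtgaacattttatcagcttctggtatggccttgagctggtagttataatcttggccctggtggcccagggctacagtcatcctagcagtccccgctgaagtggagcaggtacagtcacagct

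CHGA held the full cAMP response element 54 bases before its start, a motif present in 1.85% of 35116 windows of this length, and no other member with a window held it. The EGR1 motif was also found in CHGA alone, against 9.43% of all windows. PHOX2A held 7 GC boxes, some of them overlapping, CHGA held 1 and DBH 1, against 45% of all windows with at least 1. The shorter TGACG was found in DBH and in CHGA, where 2 of its matches make up the full element, against 24.6% of all windows. TATAAA was found in none of the 4, against 11.5% of all windows. CpG dinucleotides numbered 34 in PHOX2A and 24 in CHGA, against 8 in DBH and 5 in CYP11A1, with a median of 14 over all windows. The windows of PHOX2A and CHGA thus had more CpG than the median window, and those of DBH and CYP11A1 had fewer. The PHOX2A window is not at the start as counted, and PNMT, TH, CHGB and STAR have no window. A link between CpG number and level was not tested. These matches describe letters only.

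Of the 8 genes, PNMT, PHOX2A and CHGA, 3 in all, reached 1 CPM in each library and were called detected, where CPM is a gene's count scaled to a common library total. By the same rule 65.9% of protein-coding genes and 27.7% of all genes were detected. All 3 belong to the medulla, as 3 of 6 members, while 0 of the 2 cortex genes were detected. TH and CYP11A1 had 0 counts in both libraries, as had 15.4% of protein-coding genes. The 8 genes together held 194 counts of 18011638 in replicate 1 and 144 of 18575058 in replicate 2, or 9.26 ± 2.13 CPM. RNA from few cells with much of a transcript and from many cells with little cannot be told apart in these libraries. A count of 0 allows up to 0.167 CPM in replicate 1 and 0.162 CPM in replicate 2, taken as 3 counts. The 95% Poisson intervals are 2-sided and reach further for a count of 0, to 0.205 CPM in replicate 1 and 0.199 in replicate 2. Such limits and the 95% Poisson intervals cover counting error only.

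**Figure D1:**
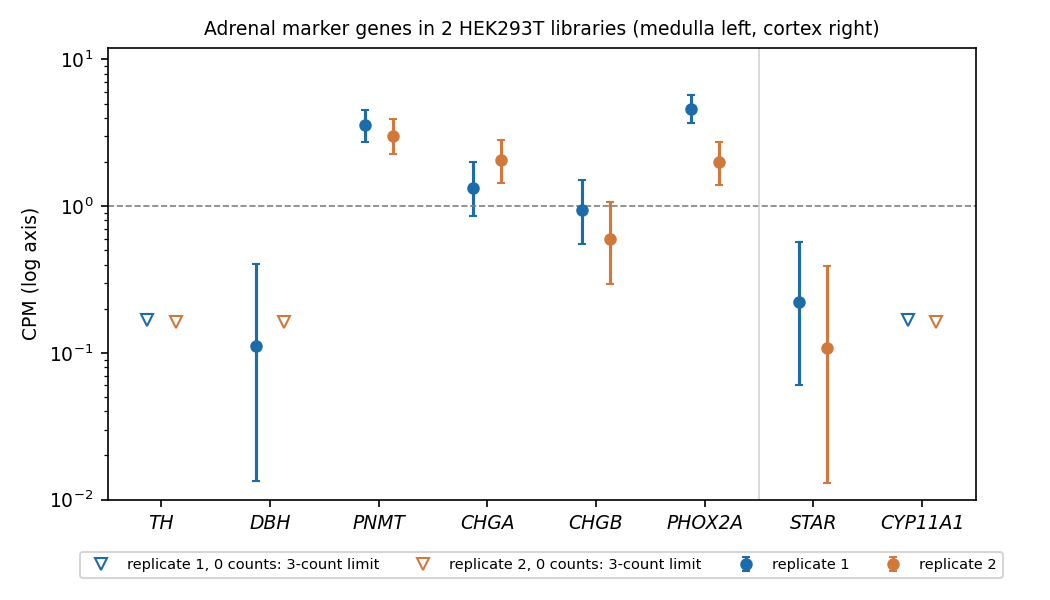
Level of each adrenal marker gene in CPM (log axis) in replicate 1 and replicate 2, with exact 95% Poisson intervals of the count as bars. Open triangles mark 0 counts and stand at the 3-count limit, and the dashed line marks 1 CPM. PNMT, CHGA and PHOX2A lie above the line in both libraries, and CHGB lies below it in both.

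TH, the rate-limiting enzyme of catecholamine synthesis on chromosome 11 (2163929 to 2171815, ENSG00000180176), had 0 counts in both libraries. Corrected for its exon length of 3181 bases, this allows up to 0.108 TPM in replicate 1 and 0.1 TPM in replicate 2. TPM divides counts by exon length before scaling libraries to a common total. TH shares no exonic base with another gene. Its nearest protein-coding neighbours were low too, with 0 counts of INS in both libraries and 9 and 2 counts of ASCL2.

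DBH, the enzyme that makes noradrenaline, on chromosome 9 (133636363 to 133659329, ENSG00000123454), had 2 counts in replicate 1 and 0 in replicate 2. These are 0.111 CPM (0.0134 to 0.401) and 0 CPM (0 to 0.199), so both intervals lie below 1 CPM and DBH was not detected. It shares 118 exonic bases with the antisense gene DBH-AS1, which had 4 and 5 counts.

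PNMT, the last enzyme of the route, on chromosome 17 (39667981 to 39670475, ENSG00000141744), had 64 counts in replicate 1 and 56 in replicate 2. These are 3.55 CPM (interval 2.74 to 4.54) and 3.01 CPM (2.28 to 3.91), so the intervals overlap. With the shortest exon length of the 8 genes, 1162 bases, PNMT had 6.31 TPM in replicate 1 and 5.13 in replicate 2, a mean of 5.72 ± 0.837. That lies above 60.4% of protein-coding genes by TPM and above 40.3% by CPM. The gene for the last step was therefore measured in both libraries while those for earlier steps, TH and DBH, were at or near 0 counts. PNMT shares no exonic base with another gene. PGAP3, on the opposite strand 646 bases beyond its end, had 160 and 205 counts, and TCAP, 1426 bases before it, had 5 and 8. PNMT and PGAP3 face each other end to end, and the part of PGAP3 reads in the PNMT count was not tested.

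The remaining genes of catecholamine synthesis split by role. DDC, the second enzyme of the route, had only 3 and 2 counts. The 5 genes that make or recycle tetrahydrobiopterin, the cofactor of TH, were all detected, and so was CYB561, the granule cytochrome that supplies electrons for DBH. In all, 6 of these 7 genes were detected, with a median of 16.2 TPM against 2.88 for all protein-coding genes. PCBD1, which recycles the cofactor, led with 104 ± 8.75 TPM. SPR had 53.6 ± 4.26 TPM, PTS 34.5 ± 2.96, QDPR 16.2 ± 1.26, GCH1, the entry enzyme of the cofactor route, 13 ± 0.495, and CYB561 5.73 ± 0.565. The cofactor also serves other enzymes, among them the nitric oxide synthases.

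Genes for storage, uptake and breakdown of catecholamines were detected in 3 of 7 cases. SLC18A1, the vesicle transporter typical of adrenal chromaffin cells, had 0 counts in both libraries. SLC18A2, the transporter typical of neurons, had 229 counts in replicate 1 and 84 in replicate 2, but 56.4% of its exonic bases are shared with other genes, so its value is uncertain. The noradrenaline and dopamine uptake transporters SLC6A2 and SLC6A3 had 0 counts. The monoamine oxidase genes were low, with 46 and 40 counts of MAOA and 15 and 17 of MAOB, of which MAOA alone was detected.

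CHGA, the granin named for chromaffin granules, on chromosome 14 (92923150 to 92935285, ENSG00000100604), had 24 counts in replicate 1 and 38 in replicate 2. These are 1.33 CPM (0.854 to 1.98) and 2.05 CPM (1.45 to 2.81), or 1.12 ± 0.302 TPM. The intervals overlap, and that of replicate 1 reaches below the detection threshold. CHGB, the second granin, on chromosome 20 (5911510 to 5925353, ENSG00000089199), had 17 and 11 counts, or 0.944 CPM (0.55 to 1.51) and 0.592 CPM (0.296 to 1.06). Both intervals of CHGB reach past 1 CPM, so its place below the threshold is within counting error. By length CHGB had 0.351 ± 0.124 TPM, below CHGA in both libraries. Neither gene shares exonic bases with another.

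Among 11 other genes of dense granules 4 were detected. The carboxypeptidase CPE (58.8 ± 10.3 TPM), the convertase inhibitor gene PCSK1N (112 ± 19.2) and the amidating enzyme PAM (8.94 ± 0.479) led by CPM. The convertase gene PCSK2 and the enkephalin precursor PENK, which chromaffin granules carry, had 0 counts in both libraries. SCG2, another granin, had 3 and 2 counts.

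PHOX2A, on chromosome 11 (72239077 to 72245664, ENSG00000165462), had 83 counts in replicate 1 and 37 in replicate 2. These are 4.61 CPM (3.67 to 5.71) and 1.99 CPM (1.4 to 2.75), and the intervals do not overlap. In TPM it had 5.33 and 2.21, a mean of 3.77 ± 2.21, above 53.9% of protein-coding genes. Its last 71 exonic bases, from 72239077 to 72239147, are also the last bases of INPPL1 on the opposite strand, a phosphatase gene with 1730 and 1921 counts. Spread evenly over the 6574 exonic bases of INPPL1, those counts would put 18.7 and 20.7 into the shared stretch. How the INPPL1 reads lie along its exons was not tested. The same even spread did not hold for STAR and ASH2L, described below, so these 2 values are rough. PHOX2A and INPPL1 reads cannot be told apart in that stretch, so the level of PHOX2A is uncertain. INPPL1 did not share the difference between the libraries, with 99.7 ± 5.21 CPM.

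Among 10 other regulators of the sympathoadrenal lineage 6 were detected, with a median of 2.15 TPM. By CPM they were led by the zinc finger factor GATA2 (408 and 395 counts, 9.92 ± 0.747 TPM), the bHLH factor HAND1 (310 and 263 counts, 18.7 ± 3.14 TPM) and the LIM homeodomain factor ISL1 (130 and 141 counts, 5.31 ± 0.0265 TPM). INSM1 with 74 and 72 counts, HAND2 with 68 and 75 and GATA3 with 77 and 51 were the other detected factors. SOX11 and TFAP2B had 0 counts in both libraries. As background, these factors also act in other lineages.

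A chosen list of 5 factors known to regulate PNMT, which need not be complete, was detected in full. By the same rule 65.9% of protein-coding genes were detected. MAZ had 289 ± 3.81 TPM, an uncertain value because 58.4% of its exonic sequence also belongs to other genes. SP1 had 8.39 ± 0.13 TPM, TFAP2A 5.59 ± 2.94 and NR3C1, the glucocorticoid receptor, 3.87 ± 0.646. EGR1, an immediate early factor, had 42 and 21 counts, or 1.12 ± 0.581 TPM.

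STAR, on chromosome 8 (38142700 to 38150992, ENSG00000147465), had 4 counts in replicate 1 and 2 in replicate 2. These are 0.222 CPM (0.0605 to 0.569) and 0.108 CPM (0.013 to 0.389), and both intervals lie below 1 CPM. Exons near its end share 338 bases with the end of ASH2L on the opposite strand, a chromatin gene with 748 and 843 counts. An even spread of those counts over ASH2L would put 44.7 and 50.4 into the shared stretch, more than the whole count of STAR. With reads given to both genes, as treated here, the even spread therefore does not hold in this stretch. STAR also shares 14 bases with the antisense gene ENSG00000253356, which had 639 and 636 counts. The few counts of STAR cannot be told apart from reads of either gene. CYP11A1, on chromosome 15 (74337759 to 74367646, ENSG00000140459), had 0 counts in both libraries, which allows up to 0.101 TPM in replicate 1 and 0.094 TPM in replicate 2. It shares 27% of its exonic bases with 2 genes on the opposite strand that also had 0 counts.

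The other genes of steroid synthesis divided into steroid-converting enzymes and their electron suppliers. CYP21A2, CYP11B1, CYP11B2, HSD3B1 and HSD3B2, which carry out later steps of cortisol and aldosterone synthesis, had 0 counts in both libraries, and CYP17A1 had 1 and 3. FDX1 (36.2 ± 8.97 TPM) and FDXR (28.6 ± 0.00116), which pass electrons to mitochondrial P450 enzymes such as CYP11A1, were detected. POR (14.6 ± 1.53) and CYB5A (13.1 ± 0.729), which serve microsomal P450 enzymes, were detected as well. The 4 detected genes of the 10 are thus the electron suppliers, which many cell types use.

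Of 8 regulators of the cortex 5 were detected. NR0B1, a nuclear receptor of the cortex, and MC2R, the receptor for ACTH, had 0 counts in both libraries, and NR5A1, the main regulator of steroidogenic genes, had 6 in each. GATA6 had 10.4 ± 1.8 TPM and GATA4 6.90 ± 0.165. MRAP, the accessory protein of MC2R, had 96 and 117 counts, but 70.2% of its exonic bases are shared and its value is uncertain. All 7 genes of cholesterol supply were detected, among them TSPO (293 ± 14.5 TPM), the STAR paralogue STARD3 (11.7 ± 0.135) and the lysosomal exporter NPC1 (5.89 ± 0.0354).

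**Figure D2:**
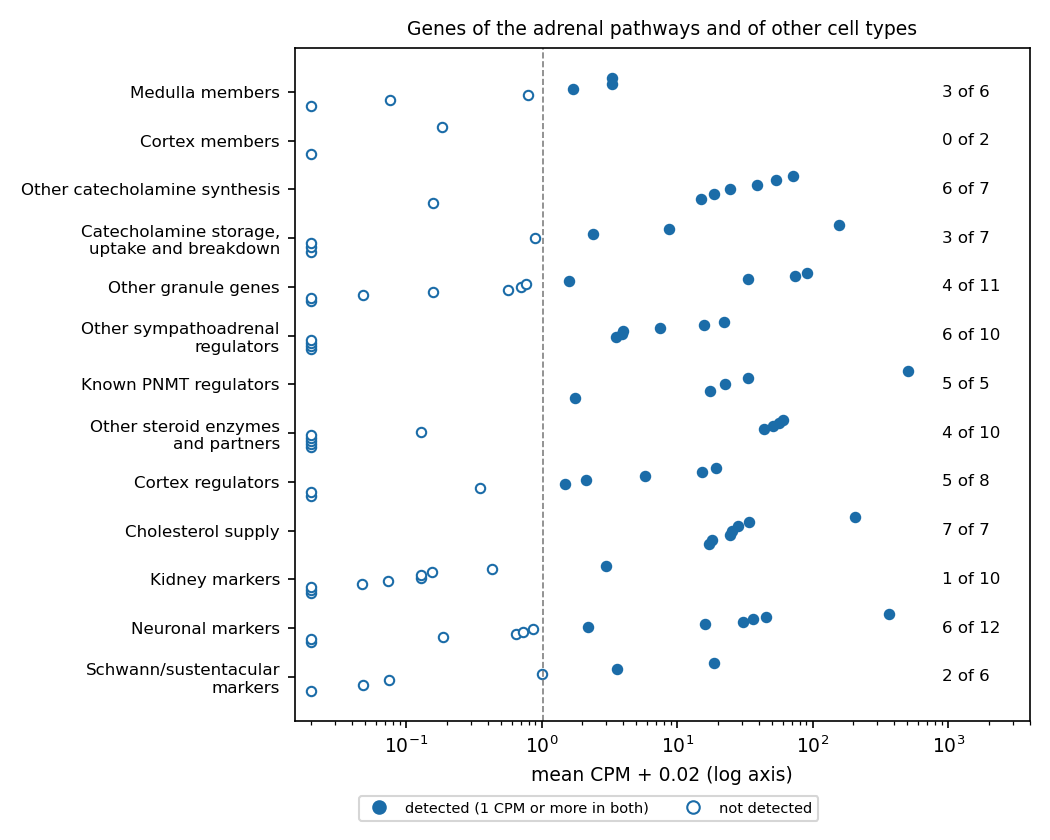
Mean CPM plus 0.02 (log axis) of each gene of the adrenal lists and of markers of other cell types, with 1 point per gene and the number detected at the right. Filled points are genes at 1 CPM or more in both libraries, and the dashed line marks 1 CPM. Cofactor and electron supply genes lie far to the right of the medulla and cortex members.

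The 8 genes had relatives by sequence that fared otherwise. STARD3 and MOXD1, a relative of DBH with 468 and 564 counts (10.9 ± 0.864 TPM), were the detected ones among 9 paralogues. Of the relatives of TH, TPH2 had 0 counts in both libraries and TPH1 had 19 and 8. INMT, a methyltransferase related to PNMT, had 1 and 0 counts and NNMT had 0 in both. CYP27A1, a mitochondrial P450 related to CYP11A1, had 11 and 15 counts. DBH and STAR thus had few counts while a relative of each was detected, and the reverse held for PNMT with INMT and NNMT.

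Ordered by TPM, which corrects for length, the members ran PNMT, PHOX2A, CHGA, CHGB, STAR and DBH, with TH and CYP11A1 at 0. PNMT (6.31 and 5.13 TPM) and PHOX2A (5.33 and 2.21) overlapped between libraries and cannot be ranked. CHGA (0.91 and 1.34) lay below both and CHGB (0.438 and 0.263) below CHGA without overlap of the library values. STAR (0.103 and 0.0479) and DBH (0.0835 and 0) overlapped. This order leaves counting error out. In CPM, the counting intervals of CHGA and CHGB overlapped in replicate 1 and not in replicate 2. Those of CHGA and PHOX2A overlapped in replicate 2 and not in replicate 1. The median over all 8 was 0.213 TPM, against 2.88 for all protein-coding genes, and PNMT and PHOX2A alone exceeded that median.

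**Figure D3:**
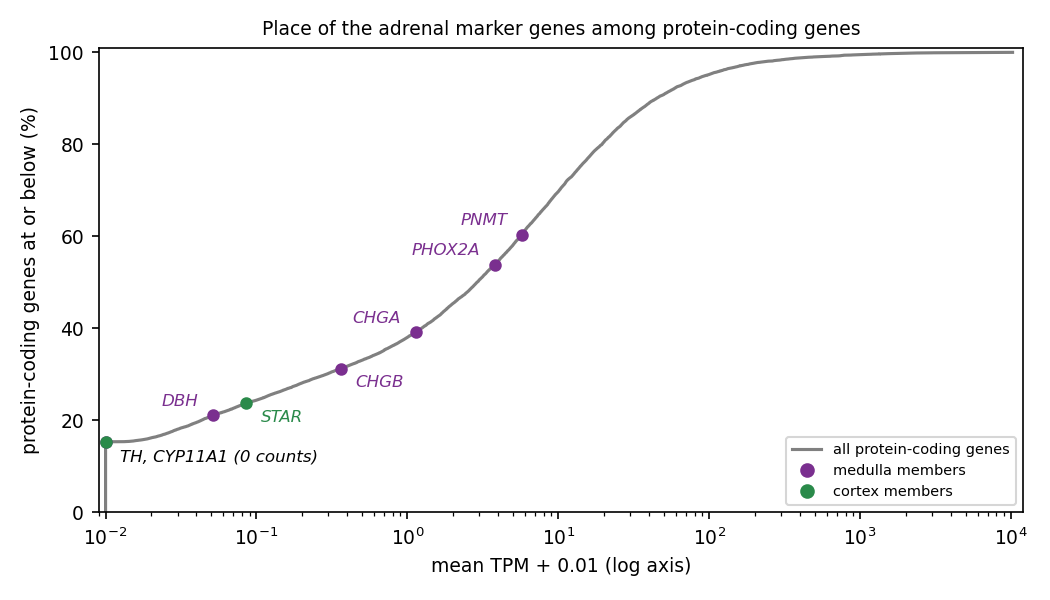
Share of protein-coding genes at or below each level (grey curve) against mean TPM plus 0.01 (log axis), with the adrenal marker genes as points. PNMT lies above 60.4% and PHOX2A above 53.9% of the genes, CHGA and CHGB lower, and STAR, DBH, TH and CYP11A1 at the low end.

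Markers of other cell types give a scale for these levels. Of 10 kidney markers 1 was detected, LRP2 (0.368 ± 0.0679 TPM), and AQP1 had 8 and 7 counts and NPHS1 2 and 3. AQP2, SLC12A3 and UMOD had 0 counts. Of 12 neuronal markers 6 were detected, led by UCHL1 (334 ± 5.81 TPM), INA (28.3 ± 1.07) and NEFM (20.3 ± 1.71), and DCX and ELAVL4 had 0 counts. Neuronal, chromaffin and neuroendocrine cells share several of these genes, among them INA and UCHL1. Of 6 markers of Schwann and sustentacular cells, the glia of the adrenal medulla, 2 were detected, FOXD3 (14.8 ± 0.929 TPM) and ERBB3 (0.621 ± 0.119), while S100B had 0 counts. SOX10, which defines that lineage, had 1 and 0. The median CPM of a list was 1.23 for the medulla members and 0.0824 for the cortex members, against 1.52 for neuronal, 0.516 for glial and 0.0812 for kidney markers, and 8.61 for all protein-coding genes. By median CPM the medulla members lay below the neuronal markers, and by median TPM above them, at 0.737 against 0.538. Summed levels, which depend on the number of genes and on single abundant ones, were 9.1 ± 2.05 CPM for the medulla members and 0.165 ± 0.0809 for the cortex members. They were 498 ± 8.41 CPM for neuronal markers, of which UCHL1 gave 365, 23.4 ± 0.704 for glial markers, of which FOXD3 gave 18.8, and 3.79 ± 0.884 for kidney markers.

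PHOX2A was the member that parted most between the libraries. Its ratio of replicate 1 over replicate 2 was 2.26 (exact 95% counting interval 1.52 to 3.43), or 1.14 on the log2 scale. PNMT, with the same mean count of 60, had a ratio of 1.15 (0.793 to 1.68). These were the 2 members with a mean count of 50 or more, so 1 of 2 passed 1 log2 in this direction, as did 1.92% of 14704 genes at that count and 2.49% of 1126 genes with a mean count between 50 and 75. In the other direction 0.143% of the 14704 genes passed. Below that count, CHGA had a ratio of 0.638 (0.366 to 1.09), CHGB 1.56 (0.689 to 3.69) and STAR 2.02 (0.289 to 22.3), and each of these intervals includes 1. Each ratio sets 1 library against 1, so it has no replicate check and no p-value.

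**Figure D4:**
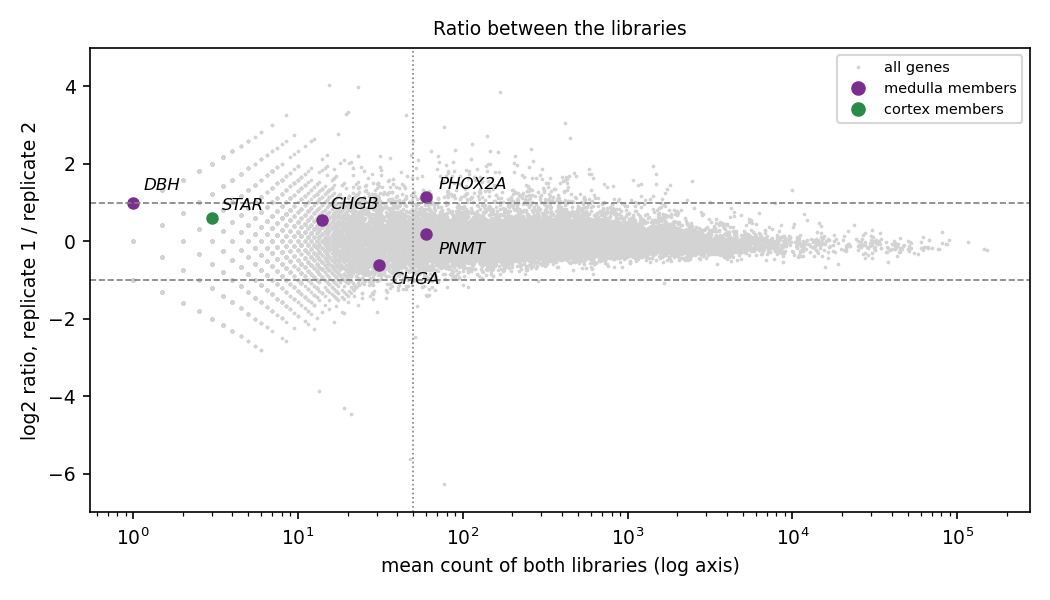
Log2 ratio of replicate 1 over replicate 2 against the mean count of both libraries (log axis) for every gene whose mean count reached 1 (grey), with the adrenal marker genes as coloured points. Dashed lines mark 1 log2 either way and the dotted line a mean count of 50. PHOX2A lies at 1.14 and PNMT at 0.2.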

How the data were processed

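RNA of 2 HEK293T libraries was treated with DNase I, primed with oligo(dT) and built into libraries by single-strand ligation of sheared cDNA, per the labels' protocols. Each deposited file holds the raw gene counts of 1 library, whole numbers that the authors left without normalisation, per the file headers. Build GRCh38, counting with featureCounts 2.0.3, trimming with Trim Galore 0.6.7 and base calling with bcl2fastq 2.17 are named by the submitters' processing notes. Not given in the sources used here are the aligner, the annotation release and whether counting used strand or overlaps.

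CPM was computed from the counts and their totals, 18011638 and 18575058, and TPM from the deposited exon lengths. Of 60664 IDs, 60463 matched a symbol, and GENCODE 29 typed 19890 as protein-coding. The log2 ratios set replicate 1 over replicate 2, scaled by TMM factors of edgeR 4.0.16 (R 4.3.3) with a prior count of 2. The ratio step was tested on simulated counts with known fold changes. DESeq2 1.42.0 size factors were an alternative. Intervals come from scipy 1.17.1. Without a second group no test between groups was run.

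Shared exonic bases were taken from the deposited coordinates. Of 837 pairs in which a gene lies wholly inside exons of an opposite-strand gene, the inner gene had counts in 523 and exceeded the outer in 0, so reads are treated as given to overlapping genes whatever their strand.

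The 8 genes and the 12 accompanying lists were chosen with earlier results of these data known. Named genes were all members and all genes of the synthesis, storage, steroid enzyme, paralogue and PNMT regulator lists. From the others, the 3 highest by CPM and up to 3 at 0 counts, in alphabetical order, were named. SCG2, INSM1, HAND2, GATA3, TFAP2B, NR5A1 and SOX10 were named after their values were seen. A few further list genes are left unreported by name but enter their list's counts, sums and medians.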

Additional observations from a re-analysis of the deposited data

How the results depend on the processing

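The number of members detected was 3 with TMM-scaled totals, without either replicate, and when members with at least 25% of exonic sequence in common with other genes were dropped (7 left). It was 4, with CHGB added, at 0.5 CPM or at 10 counts in both libraries, and 2, with CHGA lost, at 1 TPM in both. Of the 100 other list genes 50 were detected, and between 45 and 57 over the same alternatives. The summed level of the members, 9.26 CPM, was 9.25 with TMM factors and 9.24 with DESeq2 size factors, and between 7.75 and 10.8 without 1 replicate. With longest coding transcripts giving the length in place of the deposited exon length, CHGA moved to 1.55 TPM, CHGB to 0.573 and STAR to 0.163, more than the spread between the libraries, and PNMT had 4.98 and PHOX2A 3.70. PHOX2A had a log2 ratio between 1.12 and 1.17 with DESeq2 size factors, library totals alone or a prior count of 0.5. Without a filter on the mean count 2 members passed 1 log2, since DBH, with 2 and 0 counts, was added by the prior count. A ratio between the libraries cannot be had without a replicate. No paired analysis was possible because the labels give 1 group. Depth limits the members at few counts, DBH and STAR above all, and the 3-count limit is the level that a count of 0 still allows.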
